A study of Mus musculus with 6 samples.

Results

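Open chromatin was examined at 9 genes used as markers of fibroblasts: Twist2, Fbn1, Prrx1, Postn, Thy1, S100a4, Fap, Lum and Dcn. They are of interest here because the stem cells were maintained on a layer of irradiated mouse embryonic fibroblasts before the experiment, so nuclei of those feeders could have been carried into the libraries. A peak was counted for a gene when that gene was the closest protein-coding gene on mm10 and lay within 100 kb. The rule gave 117 of 205844 peaks in the list named FM and 49 of 139164 peaks in the list named KO. Merged over both lists these were 128 of 239675 accessible regions, for 9 of 21887 protein-coding genes.

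The assay was ATAC-seq, in which the Tn5 transposase cuts accessible DNA and tags it for sequencing. Mouse epiblast stem cells, which stem from the epiblast after implantation and had been kept in bFGF (10 ng/mL) and Activin A (20 ng/mL), were differentiated in serum as embryoid bodies for 2 days. One group was Mixl1 KO (3 libraries) and the other was Mixl1 induced, D1Dox (3 libraries), in which inducible lines received doxycycline at 1 µg/mL 24 h before collection, with 50000 cells taken per library. Mixl1 encodes a paired-like homeodomain protein expressed in the streak of the gastrulating embryo. The labels do not say whether replicates were separate cultures, how the knockout was made, how many lines were used, or that the knockout cells received doxycycline. Genotype, drug and line therefore cannot be told apart. The deposited data are 1 peak list per group. No label spells out FM; it was paired with the induced group because the other list carries the knockout's name. With 1 list per group no difference below has a replicate error or a test. The number of reads is unknown, and every list value is the authors' own.

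Fibroblasts build and remodel connective tissue. Twist2 and Prrx1 encode transcription factors of embryonic mesenchyme. Fbn1, Postn, Lum and Dcn encode matrix proteins: fibrillin-1 of microfibrils, periostin, and the small leucine-rich proteoglycans lumican and decorin. Thy1 and Fap encode cell surface proteins, a GPI-anchored glycoprotein and a serine protease, and S100a4 encodes a calcium-binding protein also called fibroblast-specific protein. Most of these genes are also active in embryonic mesoderm, which serum-differentiated cells can form, and Thy1 is expressed in neurons and T cells as well. The list is thus not exclusive to feeders.

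The promoters of 5 of the 9 genes were in the RefSeq table for GRCm38.p6 (mm10). They are shown because, among these 5 genes, starts with a peak over them had more CG dinucleotides before them than starts without. TATAAA was before only some of the starts without a peak and none of those with one. Each line gives the 250 bases before a start site, 5′ to 3′ on the gene's strand, with every CG dinucleotide and every TATAAA in capitals. Postn has 2 listed starts.
Twist2: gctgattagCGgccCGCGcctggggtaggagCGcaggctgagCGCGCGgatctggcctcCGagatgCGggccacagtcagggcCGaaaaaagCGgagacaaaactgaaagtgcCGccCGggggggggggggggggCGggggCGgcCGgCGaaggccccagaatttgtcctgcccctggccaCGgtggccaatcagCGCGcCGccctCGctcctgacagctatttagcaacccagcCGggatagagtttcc
Fbn1: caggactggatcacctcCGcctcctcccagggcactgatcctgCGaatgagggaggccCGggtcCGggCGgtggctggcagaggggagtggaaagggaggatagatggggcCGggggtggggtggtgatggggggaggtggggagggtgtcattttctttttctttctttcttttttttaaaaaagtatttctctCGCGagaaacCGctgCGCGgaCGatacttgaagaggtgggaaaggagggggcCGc
Prrx1: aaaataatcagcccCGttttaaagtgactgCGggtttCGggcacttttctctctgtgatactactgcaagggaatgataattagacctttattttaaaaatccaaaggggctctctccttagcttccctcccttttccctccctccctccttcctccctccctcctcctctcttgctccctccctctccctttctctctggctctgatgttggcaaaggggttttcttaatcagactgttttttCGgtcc
Postn, first start: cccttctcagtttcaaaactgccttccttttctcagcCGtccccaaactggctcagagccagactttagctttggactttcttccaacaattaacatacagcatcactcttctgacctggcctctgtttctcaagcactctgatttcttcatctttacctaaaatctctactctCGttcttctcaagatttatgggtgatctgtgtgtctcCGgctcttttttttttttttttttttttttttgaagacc
Postn, second start: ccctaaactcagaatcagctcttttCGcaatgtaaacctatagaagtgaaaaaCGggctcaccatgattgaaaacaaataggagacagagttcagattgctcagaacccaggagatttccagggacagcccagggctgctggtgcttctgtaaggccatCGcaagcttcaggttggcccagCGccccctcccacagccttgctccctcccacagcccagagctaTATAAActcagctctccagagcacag
S100a4: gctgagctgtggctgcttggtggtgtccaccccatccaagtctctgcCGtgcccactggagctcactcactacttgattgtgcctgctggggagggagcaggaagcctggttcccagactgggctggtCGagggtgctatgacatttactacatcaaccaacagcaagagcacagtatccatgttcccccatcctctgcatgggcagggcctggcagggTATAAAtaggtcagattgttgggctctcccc
These stretches are chr1:91801211-91801460 (plus strand) for Twist2, chr2:125506439-125506688 (minus) for Fbn1 and chr1:163313651-163313900 (minus) for Prrx1. They are chr3:54359017-54359266 and chr3:54360857-54361106 (plus) for Postn and chr3:90603520-90603769 (plus) for S100a4. Thy1, Fap, Lum and Dcn had no entry, and for them a peak at either end of the gene was counted.

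A peak within 1 kb of a start site was present at 4 of the 9 genes in the FM list, namely Twist2, Fbn1, Prrx1 and Thy1. Over all protein-coding genes the FM list had such a peak at 73.9%. In the KO list 5 of the 9 had one, the same 4 genes and S100a4, against 71.2% of all genes. The exact 95% (Clopper-Pearson) interval was 13.7 to 78.8% for 4 of 9 and 21.2 to 86.3% for 5 of 9, so neither count can be told from the share of all genes at this number of genes. Postn, Fap, Lum and Dcn had none in either list. With the narrower window of 250 bases before to 50 after the start (250 bases around gene ends where no start is listed), 3 genes remained in each list, Twist2, Fbn1 and Thy1. Of all genes with a listed start, 68.9% had an FM peak and 66.6% a KO peak over that window. The Prrx1 and S100a4 peaks lay beside the start and not over it.

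Fbn1, on chromosome 2 at 125300594 to 125506485, had the most significant start-site peak of the 9 genes in both lists. In the FM list the peak at chr2:125505363-125507100 had a fold enrichment of 4.70 over local background and −log10 q of 83.2, with 252 fragments piled up at its summit. In the KO list the peak at chr2:125505215-125507099 had a fold of 4.42, −log10 q of 61.0 and 196 fragments. Within its own list the summit fold exceeded 97.7% of FM peaks and 93.6% of KO peaks. The peak spanned the start site, with summits 0.128 and 0.108 kb into the gene.

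Twist2, on chromosome 1 at 91801461 to 91848034, had its start covered by chr1:91801439-91802723 in the FM list (fold 3.15, −log10 q 29.2) and flanked by a second peak at chr1:91800040-91801332 (fold 3.00, −log10 q 26.6). The KO list had 1 peak over the same stretch, chr1:91800409-91802722, with a fold of 3.13 and −log10 q of 28.3. Summit pileups were 146 and 143 fragments for the FM peaks and 142 for the KO peak. Both lists therefore held an open region of over 2 kb at this start, called as 1 or 2 peaks.

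At Prrx1, on chromosome 1 at 163245119 to 163315145, the listed start had no peak over it. Both lists instead had peaks on either side of it. Inside the gene lay chr1:163311788-163312742 in the FM list (fold 2.86, −log10 q 17.0) and chr1:163311810-163312748 in the KO list (fold 2.55, −log10 q 14.1). At the gene's outer end lay chr1:163315000-163315357 (fold 2.21, −log10 q 7.50) and chr1:163314998-163315313 (fold 2.10, −log10 q 6.83). The outer peaks cover the end of the gene record, 1.5 kb upstream of the start in the promoter table. Other Prrx1 starts were not used here.

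Thy1, on chromosome 9 at 44043384 to 44048579, had a peak over its end of lower coordinate in both lists. The FM peak, chr9:44043129-44043806, had a fold of 2.30, −log10 q of 12.7 and 112 fragments. The KO peak, chr9:44042940-44043817, had a fold of 3.04, −log10 q of 26.1 and 137 fragments, and was the most significant KO peak assigned to Thy1. In the FM list the most significant Thy1 peak was a distal one, chr9:43953079-43953495, 89.9 kb away (fold 2.79, −log10 q 17.4).

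S100a4 was the gene at which the lists differed in having any peak. The KO list had chr3:90604430-90604963 inside the gene, with a fold of 2.15, −log10 q of 7.09 and a summit of 75 fragments 0.845 kb from the start. The FM list had no peak assigned to S100a4, but one within 2.5 kb of its start. The gene sits among other S100 genes, 1.06 kb from S100a3 and 0.435 kb from S100a5, so only about 3 kb are closer to it than to a neighbour. Within 100 kb of it lay 33 FM and 28 KO peaks, 0 and 1 of them assigned to S100a4.

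Postn, on chromosome 3 at 54359267 to 54391041, had 1 peak in each list, about 6 kb before the gene. The FM peak was chr3:54352975-54353189 (fold 2.03, −log10 q 4.86, 59 fragments). The KO peak was chr3:54353011-54353257 (fold 1.91, −log10 q 3.75, 56 fragments). Each lay below the median −log10 q of its list, 5.76 (FM) and 5.90 (KO). The peaks overlap. Neither of the listed Postn starts was covered.

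Fap, Lum and Dcn had no assigned peak in either list. Over all protein-coding genes 14.8% had none in either list, 16.8% none in the FM list (4 of the 9, with S100a4) and 17.3% none in the KO list (3 of the 9). Lum (chromosome 10, 97565501 to 97572703) and Dcn (chromosome 10, 97479500 to 97518163) are neighbours 47.3 kb apart. No peak of either list lay within 100 kb of them, assigned or not, which held for 7.54% of all genes. The wider stretch held fewer regions of each kind than that around any other gene of the 9 except Fap. The 1 Mb stretches around Lum and Dcn are largely the same sequence. How often other genes have so few was not counted. In the 1 Mb on either side of Lum, 6 regions were in both lists, 5 FM-only and 11 KO-only. Around Dcn these were 7, 7 and 11, around Prrx1 49, 35 and 27, and around Twist2 197, 245 and 53. Kera, the neighbour of Lum on the side away from Dcn, also had 0 assigned peaks in both lists. Dcn was the closest gene for about 162.5 kb of sequence, more than the median of 46.0 kb per gene. Over the genome 10.0 FM and 6.77 KO peaks were assigned per 100 kb of sequence closest to a gene. Around Fap (chromosome 2, 62500936 to 62575509) 5 FM and 5 KO peaks lay within 100 kb, all closer to other genes, and its territory was about 93.5 kb. In the 1 Mb on either side of Fap, 15 regions were in both lists, 7 FM-only and 3 KO-only.

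**Figure D1:**
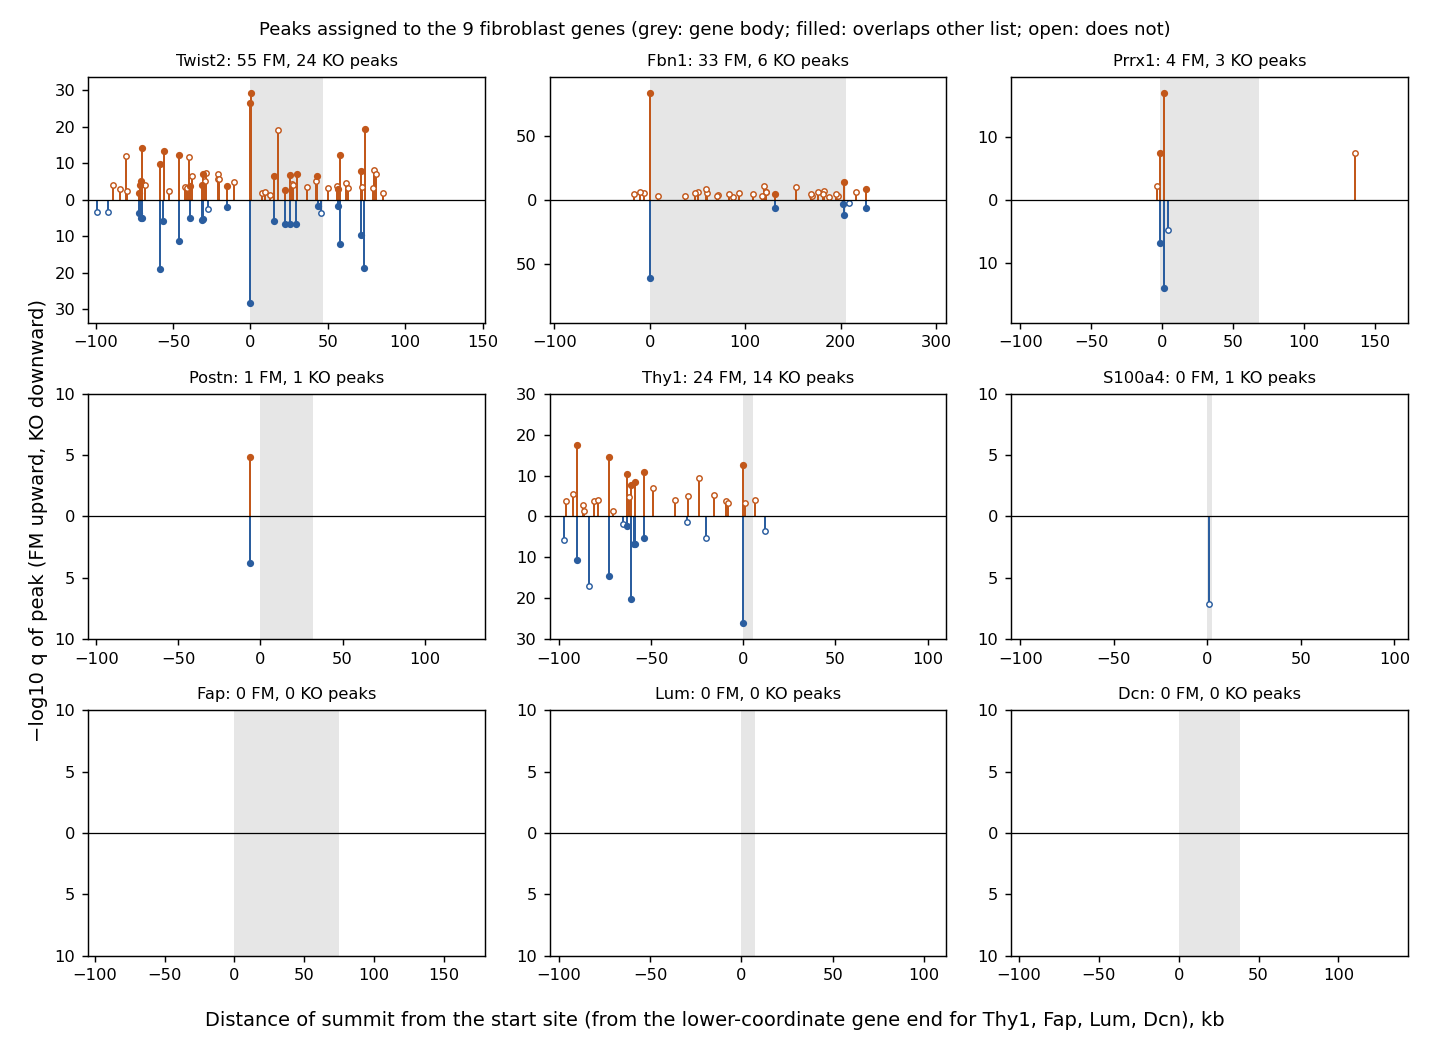
Peaks assigned to each of the 9 genes, with summit distance in kb on the x axis and −log10 q on the y axis, FM peaks upward and KO peaks downward. Fbn1 reaches 83.2 (FM) and 61.0 (KO) at its start, most other peaks are low, and the panels for Fap, Lum and Dcn hold no peak.

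Member promoters with a peak over them held more CG dinucleotides than those without. The 250 bases before the Twist2 start held 23 CG dinucleotides and those before the Fbn1 start 13, and both promoters had a peak in both lists. The 4 listed starts without a peak over the promoter, at Prrx1, Postn and S100a4, held 2 to 4: S100a4 had 2, the first Postn start 3, and the second Postn start and Prrx1 4 each. CG-rich promoters are known to be open in many cell types whether or not the gene is strongly expressed. Whether this applies to the member promoters was not tested. Over all 21263 promoters of protein-coding genes in the table, a peak lay over 98.1% (FM) and 98.2% (KO) of those with 15 or more CG dinucleotides. It was 14.6% and 10.3% of those with 0 to 2. Promoters with 3 to 7 had 49.5% and 43.1%, and those with 8 to 14 had 91.6% and 90.0%. Prrx1 and both Postn starts belong to the class of 3 to 7, S100a4 to the lowest, Fbn1 to the class of 8 to 14 and Twist2 to the highest.

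The motif TATAAA, the core of the TATA box, was found 26 bases before the second Postn start and 31 bases before the S100a4 start, counted from its first letter. On either strand it was present in 11.6% of all promoters, of which 33.2% had an FM peak and 30.5% a KO peak, compared with 71.9% and 69.3% of promoters without it. Promoters with TATAAA also held fewer CG dinucleotides, with a median of 2 against 11. The 2 traits were not separated here. The E-box CANNTG, the motif class bound by Twist proteins, was in none of the 6 member promoters and in 62.8% of all. The AP-1 motif TGACTCA (4.06% of all promoters) and the paired homeodomain motif TAATNNNATTA (0.357%) were also in none of the 6. These searches covered both strands of the 250 bases only.

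**Figure D2:**
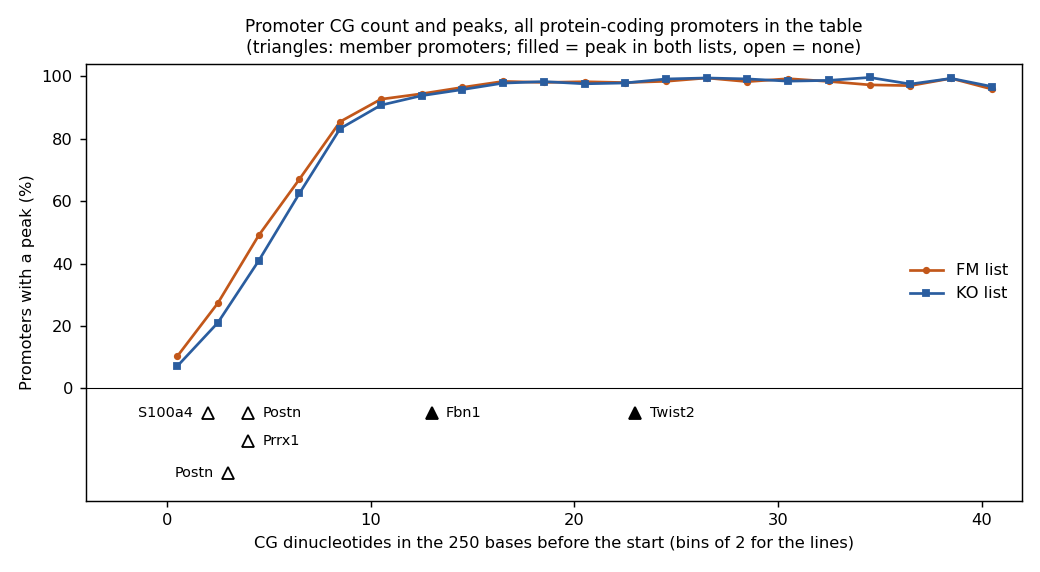
Share of protein-coding promoters with a peak (y axis, %) against the number of CG dinucleotides before the start (x axis), for the FM and KO lists. Twist2 (23) and Fbn1 (13), filled triangles, had peaks in both lists, and the open triangles of S100a4, Postn and Prrx1, at 2 to 4, had none.

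Counted over all assigned peaks, 3 genes made up most of the set. Twist2, Fbn1 and Thy1 had 112 of 117 FM peaks and 44 of 49 KO peaks. Twist2 had 55 FM and 24 KO peaks, Fbn1 33 and 6, Thy1 24 and 14, and Prrx1 4 and 3. Per 100 kb of sequence closest to the gene, Twist2 had 29.4 FM and 12.8 KO peaks, which exceeded 83.4% and 60.6% of all genes. With peaks of −log10 q of at least 5 only, Twist2 had 14.4 and 6.95. Thy1 had 21.0 and 12.2 (above 64.1% and 58.8% of genes). Fbn1 had 13.3 and 2.41 (above 47.6% and 26.9% of genes) and Prrx1 2.16 and 1.62 (above 24.1% and 23.5%). Postn had 0.656 in each list. S100a4 had 0 and 33.3, the latter from 1 KO peak on 3 kb. The 9 genes together had 9.79 FM and 4.10 KO peaks per 100 kb, compared with 10.0 and 6.77 over the genome.

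Of the 128 regions, 34 were in both lists, 81 in the FM list only and 13 in the KO list only. FM-only regions were 86.2% of those in 1 list (exact 95% interval 77.5 to 92.4%), against 73.2% over all regions of both lists. Fbn1 gave 96.7% (29 of 30, interval 82.8 to 99.9%), Twist2 89.2% (33 of 37, interval 74.6 to 97.0%) and Thy1 73.9% (17 of 23, interval 51.6 to 89.8%). Prrx1 had 2 FM-only and 1 KO-only region. Of the 5 genes with any region in 1 list only, 4 had more FM-only regions, where 76.4% of all such genes did. The intervals treat regions as independent, which neighbouring regions of 1 gene are not. In the 1 Mb on either side, without the gene's own regions, the FM-only share was 85.2% around Fbn1 (interval 77.1 to 91.3%), 82.2% around Twist2 (77.4 to 86.4%) and 77.0% around Thy1 (71.7 to 81.7%). Each gene's own share and that of its surroundings thus had overlapping intervals. Limiting each list to its 50000 most significant peaks left 9 FM-only and 4 KO-only regions at the 9 genes, or 69.2% (interval 38.6 to 90.9%). Over all regions the same limit gave 49.7% (17668 FM-only and 17850 KO-only), so the share over all regions differed between this limit and the full lists, and the interval at the 9 genes held this value.

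**Figure D3:**
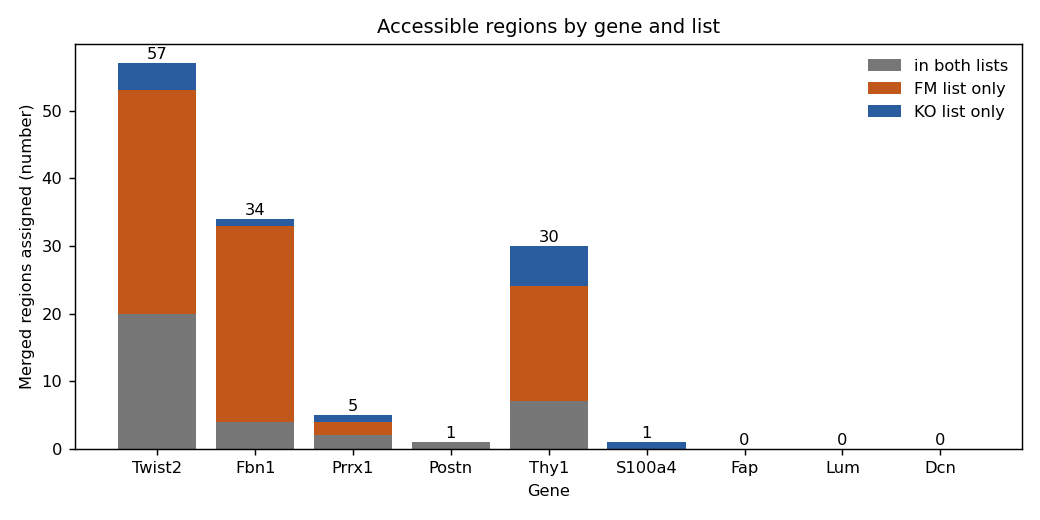
Number of merged regions assigned to each gene (y axis), stacked by whether they were in both lists, the FM list only or the KO list only. Twist2 (57), Fbn1 (34) and Thy1 (30) hold most regions, and Fap, Lum and Dcn have 0.

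**Figure D4:**
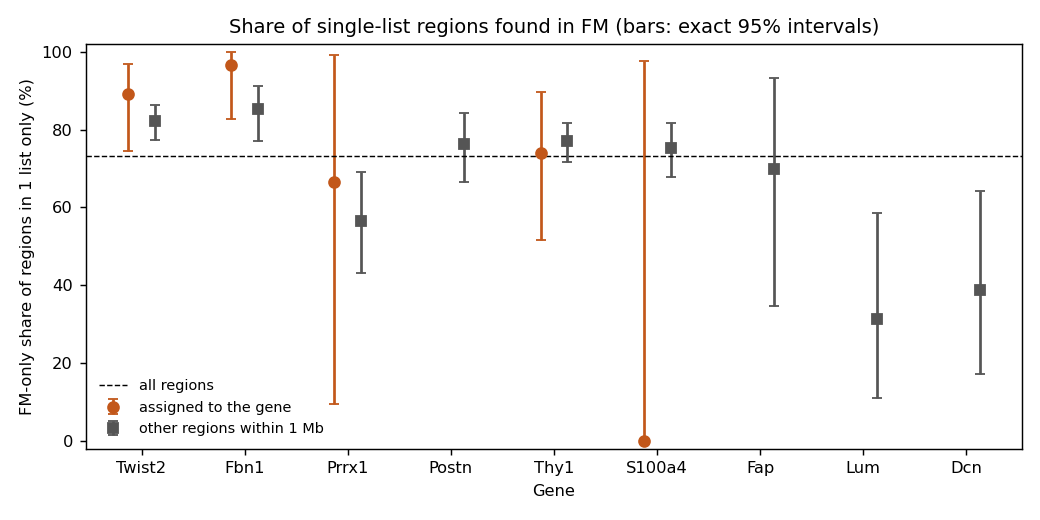
FM-only share of the regions found in 1 list (y axis, %) for each gene's own regions (circles) and for the other regions within 1 Mb (squares), with exact 95% intervals and a dashed line at 73.2% for all regions. Own and surrounding intervals overlap for every gene that has both.

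The FM-only peaks of Fbn1 lay mostly inside the gene, and all were far less significant than its start-site peak. Of 28 FM peaks in the gene body, 25 had no KO counterpart. Over all FM peaks of the genome 49.2% had one, and the surroundings of Fbn1 were also rich in FM-only regions (85.2% of those in 1 list). In 31 of the 33 FM peaks of Fbn1 the local background was within 1% of the lowest value among the member peaks of that list, 28.6 fragments. The 14 FM-only peaks of Fbn1 with −log10 q of at least 5 had 60 to 76 fragments at the summit and folds of 2.02 to 2.61. The median fold over all FM peaks was 1.96. The most significant was chr2:125387186-125387539 (fold 2.61, −log10 q 11.1), followed by chr2:125353249-125353598 (fold 2.54, −log10 q 10.2). Shared peaks of Fbn1 other than the start were few, the strongest near the far end of the gene at chr2:125302514-125304212 in the FM list (fold 2.84, −log10 q 14.1) and chr2:125302169-125302798 in the KO list (fold 2.65, −log10 q 11.7).

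At Twist2 22 of 55 FM peaks had a KO peak over them, against 49.2% of all FM peaks. The FM-only peaks were spread on both sides of the gene, 25 outside it and 8 inside. The most significant, which also had the highest −log10 q of all peaks of the 9 genes without a counterpart, was chr1:91819002-91819624 within Twist2, 17.8 kb past the start, with a fold of 2.70, −log10 q of 19.2 and 123 fragments over a background of 44.9. Others of −log10 q over 10 were chr1:91720616-91721015 (80.4 kb away, 11.9) and chr1:91761606-91761905 (39.6 kb away, 11.7). No KO-only peak of Twist2 reached −log10 q of 5. Among shared distal sites, chr1:91873904-91875560 (FM, −log10 q 19.3) overlapped chr1:91873973-91875331 (KO, 18.8), 25.9 kb beyond the gene, and chr1:91742959-91743293 (KO, 19.0) overlapped chr1:91742970-91743251 (FM, 9.77). Exons and introns are not in the gene table used here, so peaks in a gene body are given no finer class.

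Thy1 was the only gene of the 9 with several KO-only peaks of −log10 q of at least 5. The strongest was chr9:43959576-43959882, 83.5 kb from the gene, with a fold of 2.89, −log10 q of 17.0 and 97 fragments. The others were chr9:43945962-43946463 (5.67) and chr9:44023256-44023585 (5.25). The 5 FM-only peaks of this strength had −log10 q of 5.13 to 9.42, the highest at chr9:44019350-44019754, 23.6 kb away. Most Thy1 peaks lay far out, with 18 of 24 FM and 11 of 14 KO peaks over 20 kb from the gene. The neighbour on that side, Nectin1, is 236 kb away, and assignment by distance does not show which gene such a site acts on. Prrx1 had 1 FM-only peak of this strength, chr1:163177099-163177298, 67.8 kb beyond the gene (fold 2.30, −log10 q 7.53).

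Over all 9 genes, 36 of 117 FM peaks had a KO peak over them (30.8%, interval 22.6 to 40.0%), against 49.2% of all FM peaks. In the other direction 36 of 49 KO peaks had an FM peak over them (73.5%, interval 58.9 to 85.1%), against 72.5% of all KO peaks. Set beside all FM peaks of the same significance, the overlapping share was 75% against 87.6% at −log10 q of 10 and over (15 of 20) and 30.8% against 48.0% at 5 to 10 (12 of 39). It was 15.4% against 29.4% at 2 to 5 (8 of 52) and 16.7% against 22.1% under 2 (1 of 6), with no test of these differences. Peaks without a counterpart were weaker, with a median −log10 q of 4.34 among FM peaks (4.35 over all such FM peaks) and 3.44 among KO peaks (4.21 over all). The FM-only peaks came to 62 from Twist2 and Fbn1 and 19 from the other genes, so these shares describe few loci.

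The same start-site count was made for other gene lists, to show what the 9 genes stand beside. Of all protein-coding genes, 73.9% (FM) and 71.2% (KO) had a peak within 1 kb of a start. Among 16 other fibroblast genes, FM peaks lay at 13 starts (interval 54.4 to 96.0%) and KO peaks at 14 (61.7 to 98.4%). Both intervals held the share of all genes. The most significant were at the genes for the intermediate filament vimentin (Vim, −log10 q 82.1 in FM and 120 in KO), collagen VI (Col6a2, 64.2 and 63.5), collagen I (Col1a2, 53.7 in FM) and the mesenchymal factor Twist1 (78.1 in KO). Col3a1 and Col5a2, which encode fibrillar collagens, had none in either list. Vim is also expressed in epiblast and mesoderm cells.

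Of 12 epiblast genes, markers of the labelled cell type, 11 had an FM peak at the start and all 12 a KO peak. Nanog was the gene without an FM peak at its start, and its KO peak there had −log10 q of 21.3. Their most significant peaks were at Zic2 (60.1 FM, 151 KO), Lin28a (57.1 and 82.3), Sox2 (58.6 in FM) and Dnmt3b (78.5 in KO). All 12 streak and mesendoderm genes had one in both lists, led by Eomes (71.3) and Gata6 (47.8) in the FM list and T (90.2) and Foxa2 (70.1) in the KO list. The 12 housekeeping genes all had one, up to 132 at Ppia (FM) and 255 at Sdha (KO). Of 16 genes of unrelated organs, 10 had an FM peak and 6 a KO peak at the start, led by Apoa2 (92.4 and 162) and Sftpc (49.8 and 56.8). Over all protein-coding genes the share was 73.9% (FM) and 71.2% (KO). A peak within 1 kb of a start can belong to a close neighbour gene, and these lists differ in the kind of promoter they hold.

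Counting only start-site peaks of −log10 q of at least 10, the 9 fibroblast genes had 4 in each list, where 64.6% (FM) and 62.8% (KO) of all genes had one. The other fibroblast genes had 11 of 16 in each list and the organ genes 5 and 4 of 16. By this count the 9 genes lay below the epiblast list (11 and 12 of 12) and the streak list (12 and 11 of 12). The lists hold 9 to 16 genes each, and no test between them was made.

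**Figure D5:**
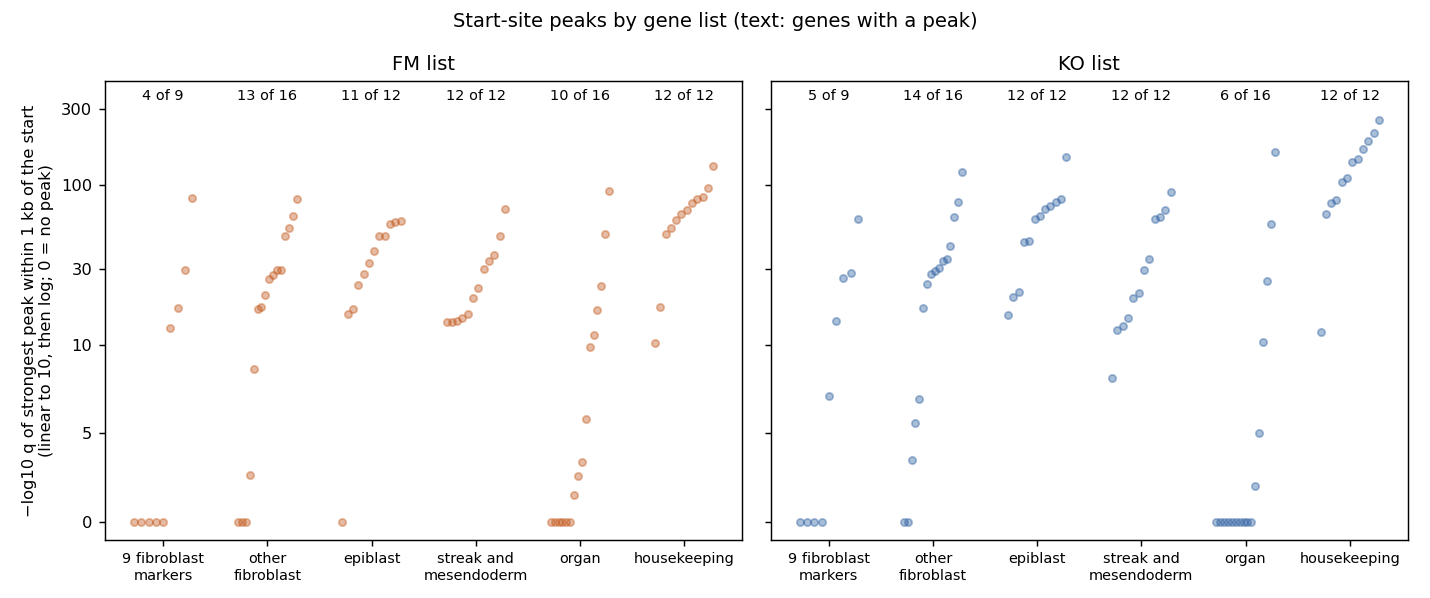
Strongest peak within 1 kb of the start for each gene of 6 lists, as −log10 q on the y axis (linear to 10, then log, 0 where there is no peak), FM list left and KO list right. The 9 fibroblast markers have a peak at 4 (FM) and 5 (KO) genes, the epiblast list at 11 and 12 of 12. Of all protein-coding genes, 73.9% (FM) and 71.2% (KO) have one.

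Whether feeder nuclei were present cannot be read from a peak list as a share of cells, and no feeder library was analysed here. The proteoglycan genes Lum and Dcn and the protease gene Fap, whose products are typical of fibroblasts, had 0 peaks in both lists, as had 14.8% of all genes, and Postn had no start-site peak. The 1 Mb on either side of Lum, Dcn and Fap also held fewer regions of each kind than that around the other member genes. The stretches around Lum and Dcn largely coincide, and no such count was made over all genes. The 4 genes with a start-site peak in both lists were Twist2, Fbn1, Prrx1 and Thy1, where 73.9% (FM) and 71.2% (KO) of all genes had one. At Prrx1 only the edge of that peak came within 1 kb, with its summit 1.23 kb (FM) and 1.70 kb (KO) from the start. Of the 16 other fibroblast genes, 13 (FM) and 14 (KO) had a start-site peak. A site open in a small part of the nuclei would reach the lists only above the peak caller's threshold. The least significant member peak of the FM list, at Thy1 (−log10 q 1.32), had 59 fragments at the summit over a background of 40.1. That of the KO list, also at Thy1 (−log10 q 1.38), had 46 over 28.8. A site open in more cells and a site more open in each cell cannot be told apart in such bulk libraries. The part of feeders in any of these peaks was not tested.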

How the data were processed

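The data are ATAC-seq peak lists from 6 libraries, 3 per group. Per the submitters' processing notes, reads were handled with bcl2fastq, Bowtie2, SAMtools and MACS2 on mm10; versions, pooling of libraries, Tn5 shift and duplicate filters are not stated there, and could change peak number and summit position. Per peak the authors deposited the fold enrichment (a ratio to local background), −log10 p and −log10 q. The lowest −log10 q was 1.30 in both lists, a q of 0.05. Peaks on chromosomes 1 to 19, X and Y were used, and rows of 1 interval (several summits) were collapsed to the row of highest −log10 p.

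Peaks overlapping by at least 1 bp were called shared. The nearest gene was found among 21887 protein-coding genes of the RefSeq table of GRCm38.p6. Starts came from the RefSeq promoter table, which held 17492 of these genes; for the others both gene ends were used, a change from the planned single start. The sequence closest to each gene was measured on a 500 bp grid. Summit pileups were solved from fold and p by the MACS2 Poisson formula, and were whole numbers within 0.02 for 117 of 117 FM and 49 of 49 KO member peaks. They give the depth behind a peak, and total reads are unknown. The pileup units are called fragments here, but the labels do not say what the peak caller counted as 1 unit. Intervals are Clopper-Pearson and cover counting only.

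The genes and lists were chosen with earlier results of these data known. Peaks were named by rule, per gene and list the most significant, those at the start, and those without counterpart of −log10 q of at least 5, the strongest of which are printed; the shared Twist2, Prrx1 and Fbn1 sites were added after their values were seen. Of the other lists the 3 genes of highest start-site −log10 q were taken, of which some are printed, and Col3a1, Col5a2 and Nanog were added. Python 3.11.15, numpy 2.4.6, pandas 2.3.3 and scipy 1.17.1 were used, and the overlap, nearest gene and pileup functions were tested on simulated data.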

Additional observations from a re-analysis of the deposited data

How the results depend on the processing

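Of the 32 alternatives tried on the counts and shares over all 9 genes, 27 stayed within the interval of the reported value or within 1.5 times the reported count. The FM-only share moved to 69.2% with 50000 peaks from each list, where it was 49.7% over all regions (73.2% with the full lists), and was 81.2 to 90.1% leaving out each gene in turn. The number of genes with a start-site peak in the KO list fell from 5 to 3 with the window of 250 bases before to 50 after the start. Peaks per 100 kb over the 9 genes were 4.94 (FM) and 2.51 (KO) at −log10 q of at least 5. The FM-only share summed over the surroundings, 76.4% within 1 Mb, was 81.0% within 500 kb; around Prrx1 it went from 56.5 to 45.5%, on few regions. In the summed share, regions near both Lum and Dcn were counted for each gene. The cause of these moves was not tested. Counting either gene end for every gene, an alternative chosen after seeing the data, gave the same 4 and 5 genes. No paired analysis was possible because each group has 1 peak list that carries no replicate number, and for the same reason no replicate could be left out. Depth limits what a list can hold: sites under the q threshold of 0.05 do not appear, so 0 peaks at Fap, Lum and Dcn means none passed it.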
